A study of Homo sapiens with 12 samples.

Results

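The starts of 10 genes of the hypoxia response were examined for histone H3 lysine 9 acetylation (H3K9ac), a mark of active promoters, and for dimethylation of the same residue (H3K9me2), a mark of broad silent domains. The genes were VEGFA, CA9, SLC2A1, BNIP3, NDRG1, ADM, LDHA, HIF1A, EGLN3 and DDIT4. They were taken by name, and each was represented by the window of 5 kb either side of 1 given start on hg19, so 10 windows among the 130071 windows of the series that were tested for H3K9ac. The cells were MDA-MB-231, an established human triple negative breast cancer line, serum starved overnight per the labels' protocols. One condition was left untreated, and the other received DETA/NO, a slow donor of nitric oxide, at 500 µM for 24 h. Each condition had 2 biological replicates per mark, which gives 4 libraries for H3K9ac and 4 for H3K9me2, and the untreated libraries were the control.

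Cells sense low oxygen through hypoxia-inducible factor, a transcription factor whose alpha subunit HIF1A is marked for destruction by prolyl hydroxylases such as EGLN3. These enzymes use oxygen and iron, and nitric oxide is known to act on iron enzymes of this kind. When the factor is stable it binds a short element with the core ACGTG or GCGTG and raises genes for glucose uptake, glycolysis, blood vessel growth, pH control and mitochondrial turnover. EGLN3 is itself a target, so the response carries its own brake. The question here was where the marks lay at these gene starts with and without nitric oxide.

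The RefSeq promoter table on GRCh38.p14 lists 8 of the 10 genes, VEGFA and NDRG1 being the exceptions, with 2 starts each for LDHA and HIF1A. The 250 bases before each listed start were searched for ACGTG and GCGTG on both strands, and a CACGTG, which holds the core on each strand, was counted once. A core was present in 6 of the 8 genes, which were CA9, BNIP3, ADM, LDHA, HIF1A and DDIT4. SLC2A1 and EGLN3 had none in this window. A core was found in 43.2% of all 35116 windows that RefSeq lists, and 2 or more in 16.5%. Of 24 further genes of the hypoxia response, 22 were listed and 19 of these held a core, against 47.4% of all genes listed. Both cores hold a CpG, and a gene counted if any of its listed windows held a core. Genes were not matched for CpG content or number of starts, so enrichment of the element was not tested. Such a match describes letters and is no evidence of binding. The sequences shown are those of CA9, with 1 core and next to no H3K9ac, BNIP3 and LDHA, which hold several cores, and EGLN3, with no core and a short H3K9ac domain. SLC2A1, with no core, and ADM, with 1, had the longest H3K9ac covered lengths in treated cells, and BNIP3 and LDHA the shortest after CA9 and EGLN3. By ratio of treated to untreated length among the 8 listed genes, BNIP3 was highest at 2.05, with SLC2A1 at 2.01 and LDHA at 2.00. ADM followed at 1.83, HIF1A at 1.73, DDIT4 at 1.60, EGLN3 at 0.98 and CA9 at 0. A link between cores and H3K9ac was not tested. The sequences read 5′ to 3′ on the gene's strand, end at the base before the RefSeq start, and carry the cores in capitals (CACGT and CACGC are cores on the other strand).
CA9, chr9:35673678-35673927, plus strand: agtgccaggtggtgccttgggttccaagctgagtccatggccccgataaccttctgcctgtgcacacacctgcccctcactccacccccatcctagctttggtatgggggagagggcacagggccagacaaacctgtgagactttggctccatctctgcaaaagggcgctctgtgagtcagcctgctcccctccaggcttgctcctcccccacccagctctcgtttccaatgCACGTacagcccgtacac
BNIP3, chr10:131981924-131982173, minus strand: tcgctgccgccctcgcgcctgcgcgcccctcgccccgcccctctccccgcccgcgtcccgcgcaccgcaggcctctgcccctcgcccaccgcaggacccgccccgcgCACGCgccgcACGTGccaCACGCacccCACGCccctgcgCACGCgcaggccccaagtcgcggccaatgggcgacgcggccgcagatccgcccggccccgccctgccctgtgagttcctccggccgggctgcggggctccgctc
LDHA, chr11:18394313-18394562, plus strand: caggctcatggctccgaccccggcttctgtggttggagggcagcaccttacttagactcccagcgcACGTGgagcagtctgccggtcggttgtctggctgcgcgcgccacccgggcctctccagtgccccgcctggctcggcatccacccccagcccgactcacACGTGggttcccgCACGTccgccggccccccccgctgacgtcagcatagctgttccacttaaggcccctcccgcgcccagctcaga
EGLN3, chr14:33951075-33951324, minus strand: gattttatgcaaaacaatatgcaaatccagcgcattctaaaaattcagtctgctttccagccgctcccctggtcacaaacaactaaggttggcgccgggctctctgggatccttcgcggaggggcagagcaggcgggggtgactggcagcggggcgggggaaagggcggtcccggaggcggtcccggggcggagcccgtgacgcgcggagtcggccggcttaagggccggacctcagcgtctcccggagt
In BNIP3 the cores were crowded, with 5 between 143 and 100 bases before the start. The first LDHA start had 3 cores, the farthest beginning 184 bases before it, and DDIT4 also had 3. The CA9 core lay 18 to 14 bases before the start. CA9 was also poor in CpG, with 5 CpG and an observed to expected ratio of 0.23, under the median of 0.56 over all promoter windows. BNIP3 had 41 CpG and a ratio of 1.09, and EGLN3 23 and 0.91. RefSeq's starts and the given hg19 starts come from different builds and need not be the same base, so no peak position was transferred onto these letters.

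H3K9ac covered more of the window in both treated libraries than in both untreated libraries at 8 of the 10 starts. The exceptions were CA9 and EGLN3. The deposited lists give called intervals and a score, so the measure here is the number of bases in each window of 10001 bp that peaks cover, and read depth is unknown. Over the 10 windows the mean covered length was 2964 and 2467 bp untreated and 5072 and 4413 bp treated, with replicates 1 and 2 in that order here and in all that follows. The condition means were 2716 bp ± 351 and 4742 bp ± 466 (SD, n = 2), a difference of 2027 bp and a ratio of 1.75. The libraries' whole lists did not follow this order, with 120630 and 59724 peaks over 48.3 and 22.8 Mb untreated and 79538 and 69151 peaks over 52.1 and 37.8 Mb treated.

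The same order was common elsewhere in the genome. Coverage was greater in each treated library than in either untreated one in 15.6% of the 130071 windows tested, which are the 10 gene starts and all 10 kb bins with a peak in any library, and it was smaller in each in 6.62%, as at 0 of the 10 starts. Windows were also centred on the 11387 H3K9ac regions present in both of the authors' reproducible sets. Among these and the 10 starts, 11397 windows in all, the share with greater coverage was 86.1%, so 8 of 10 starts is near that background. In those windows the mean covered length was 1686 bp untreated and 2952 bp treated, a ratio of 1.75, the same as at the hypoxia gene starts. The gene starts differed from them in level: 8 of the 10 had more covered bases in both conditions than the median window on such regions, at 1546.5 and 2730 bp. Those windows are centred on regions wherever they lie, not on gene starts. Other gene starts were not measured, so whether this level is particular to these genes was not tested.

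**Figure D1:**
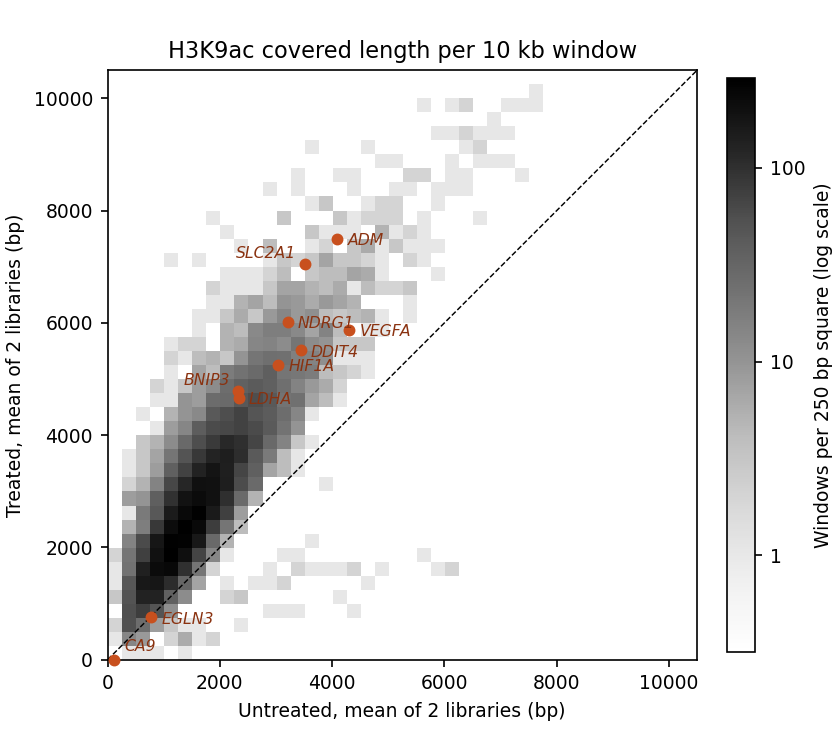
H3K9ac covered length per window in untreated (horizontal axis, bp) and treated cells (vertical axis, bp), each the mean of 2 libraries. Grey squares count the 11387 windows centred on regions of both reproducible sets, orange points are the 10 gene starts, and the dashed line marks equal length. CA9 and EGLN3 lie near the line at its lower end, and the other 8 lie above it within the grey cloud.

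None of the 10 starts passed the test when all windows were fitted together. In limma, two-sided, on the arcsine square root of the covered share, 0 of 10 starts had a Benjamini-Hochberg adjusted p under 0.05, against 0.569% of all windows called higher in treated cells and 0.00538% called lower. At an unadjusted p under 0.05, 7 starts were higher and 0 lower, against 8.06% of all windows higher. These were SLC2A1, BNIP3, NDRG1, ADM, LDHA, HIF1A and DDIT4. Their differences lay between the 95.6th percentile of all windows, for DDIT4, and the 99.6th, for SLC2A1. Among the windows on regions of both sets the same differences ranked lower, from percentile 79.0 for DDIT4 to 98.4 for SLC2A1. The median difference on the arcsine scale was 0.24 over the 10 starts, -0.07 over all windows and 0.15 over the windows on regions of both sets. The median over all windows then tested was 0.05 without untreated replicate 1, and it stayed negative without any other single library. The genome-wide count rested on single libraries: 740 windows were called higher in all, and 2159, 1357, 5873 and 0 without untreated replicate 1, untreated replicate 2, treated replicate 1 and treated replicate 2. In the same order 22959, 55785, 0 and 0 windows were called lower, against 7 in all. Each of these fits leaves a condition with 1 library, which is assumed to vary like the other condition's pair.

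The call depended on the windows fitted beside the gene starts. Fitted with the windows on regions of both reproducible sets, SLC2A1, BNIP3, NDRG1, ADM and LDHA passed limma's test, 5 of 10 against 33.6% of those windows. The same 7 starts as before had an unadjusted p under 0.05, against 52.3%. After quantile normalization, which gives each library the same distribution of shares, 0 starts passed, the differences of VEGFA and DDIT4 turned to -0.10 and -0.02 on the arcsine scale, and that of SLC2A1 shrank from 0.37 to 0.12. With 2 libraries a condition, p-values rest on the spread between 2 pairs of cultures. For each window limma moderates that spread toward the spread of the windows fitted with it.

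**Figure D2:**
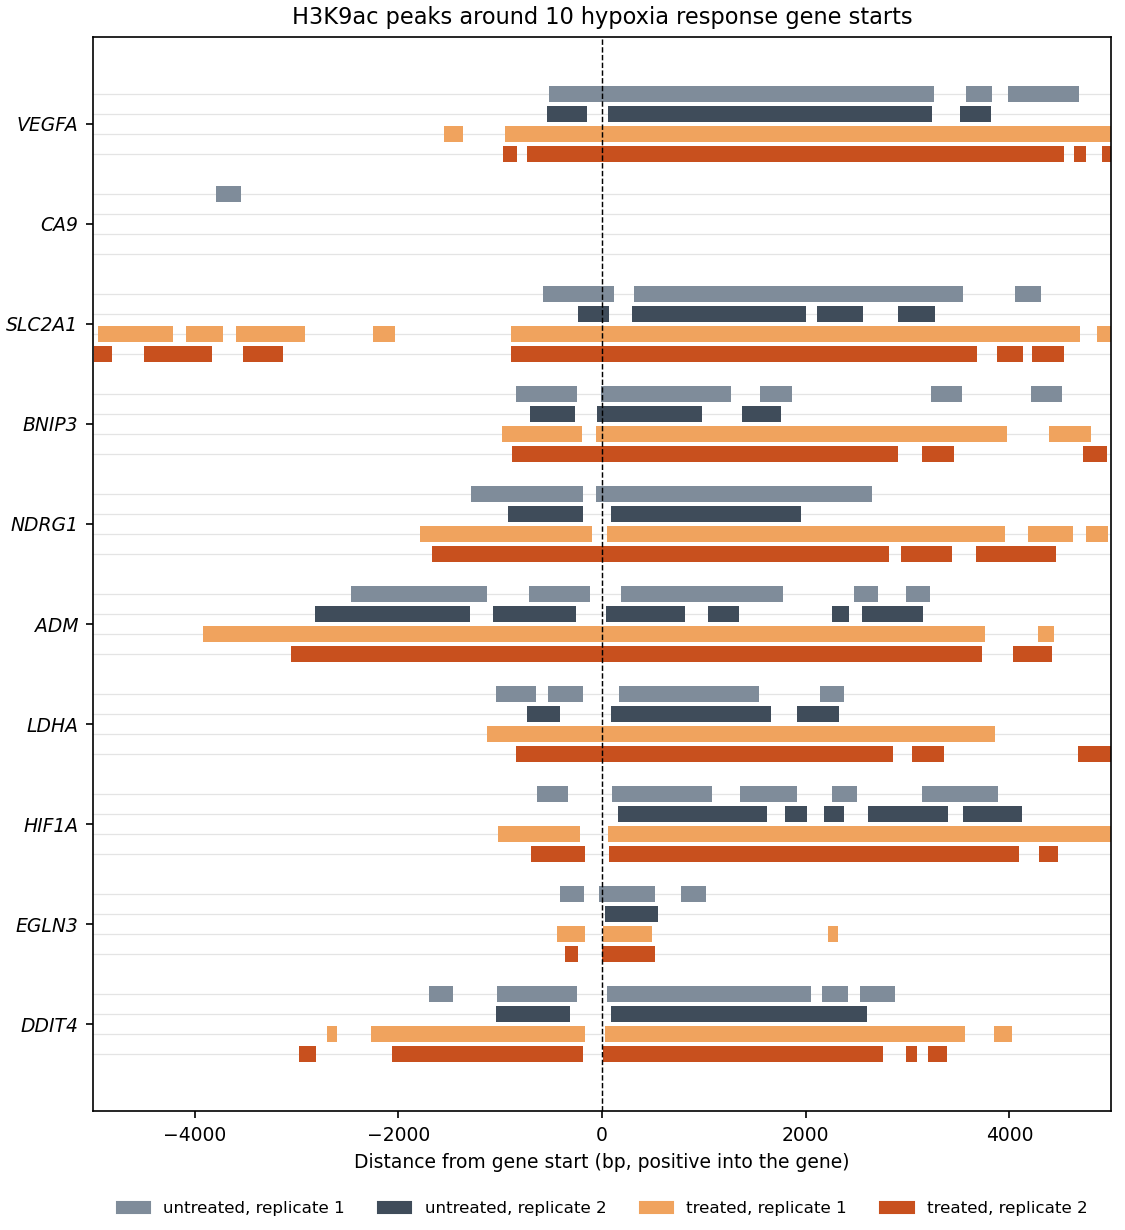
H3K9ac peaks 5 kb either side of the 10 gene starts (horizontal axis, bp, positive into the gene), with 1 row for each of the 4 libraries. Bars are called peaks and the dashed line is the start. The longest treated peak is longer than the longest untreated one at every start but EGLN3 and CA9.

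HIF1A encodes the regulated subunit of the factor itself. H3K9ac covered 2842 and 3235 bp of its window untreated and 5750 and 4746 bp treated. The condition means were 3039 bp ± 278 and 5248 bp ± 710 (SD, n = 2), and the groups did not overlap (limma, adjusted p = 0.278). Most of this lay inside the gene, where 2530 and 3235 bp of the 5000 bp downstream were covered untreated and 4946 and 4214 bp treated. Upstream of the start, untreated replicate 2 had no peak, untreated replicate 1 had 312 bp, and the treated libraries had 804 and 532 bp. The authors' reproducible set for treated cells held a HIF1A upstream region at 62161097 to 62161951 on chromosome 14, which met no reproducible untreated region. Downstream, 1 treated region of 4990 bp at 62162174 to 62167163 met 2 untreated regions of 1912 and 321 bp. The RefSeq table also places a start of HIF1A-AS1, an antisense RNA, 310 bases inside HIF1A, so the mark cannot be assigned to 1 of the 2 genes.

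EGLN3, the hydroxylase that is also a target of the factor, had a short H3K9ac domain in every library. Its covered length was 1030 and 522 bp untreated and 860 and 654 bp treated. The condition means, 776 bp ± 359 and 757 bp ± 146 (SD, n = 2), differed by 19 bp, less than the spread between replicates (limma, adjusted p = 0.996). The longest peak was 541 and 522 bp untreated and 485 and 523 bp treated. The reproducible region at the start was 576 bp wide untreated, at 34419735 to 34420310 on chromosome 14, and 523 bp treated, at 34419766 to 34420288, so nearly the same interval was called in both conditions. A second treated region of 276 bp lay upstream, at 34420454 to 34420729. Untreated replicate 1 also had a peak there, of 238 bp at 34420459 to 34420696. Within each library, the best EGLN3 peak ranked in the top 10.2%, 17.5%, 15.7% and 17.6% of peaks by the authors' score, in the order of the lengths. The corresponding ranks of LDHA were 0.400%, 0.184%, 0.547% and 0.379%, so EGLN3 was a weaker peak in treated and untreated cells alike. On the scale of change, EGLN3 stood at percentile 1.32 of the windows on regions of both sets and at 64.4 of all windows tested.

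VEGFA and ADM encode secreted signals, VEGFA the main growth factor of blood vessels and ADM the vasodilator peptide adrenomedullin. VEGFA already carried a long domain without nitric oxide, with 4743 and 3872 bp covered untreated and 6147 and 5611 bp treated. Its ratio of condition means, 1.36, was the smallest among the 8 starts with more coverage after treatment (limma, adjusted p = 0.549). Its longest peak was 3788 and 3183 bp untreated and 6365 and 5266 bp treated. The treated reproducible region of 6381 bp, at 43736973 to 43743353 on chromosome 6, met 2 untreated regions of 3802 and 311 bp.

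ADM had the greatest covered length of the 10 in treated cells, with 7834 and 7175 bp against 4000 and 4183 bp untreated. The condition means were 4092 bp ± 129 and 7505 bp ± 466 (SD, n = 2; limma, adjusted p = 0.160). Untreated ADM peaks were broken up, 5 and 6 in number with the longest at 1589 and 1515 bp. Treated libraries had 2 peaks each, of which the longest measured 7677 and 6790 bp and ran across the start. The 3 untreated reproducible regions, of 1686, 952 and 1735 bp, all met 1 treated region of 7677 bp at 10322725 to 10330401 on chromosome 11. ADM also had the broadest upstream coverage, at 2134 bp ± 281 untreated and 3487 bp ± 608 treated (SD, n = 2). RefSeq lists SBF2 starts 232 and 1236 bases upstream of ADM, so the upstream part may belong to either gene.

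SLC2A1 and LDHA serve glucose use: SLC2A1 is the glucose transporter GLUT1, and LDHA a subunit of lactate dehydrogenase, which turns pyruvate into lactate. SLC2A1 was covered over 4194 and 2829 bp untreated and 7727 and 6378 bp treated. Condition means were 3512 bp ± 965 and 7053 bp ± 954 (SD, n = 2), the largest difference of the 10 at 3541 bp (limma, adjusted p = 0.108). Much of it lay upstream, with 585 and 237 bp untreated against 2895 and 2127 bp treated. Both treated libraries called separate peaks more than 2 kb upstream of SLC2A1, where neither untreated library had one. The treated set held a region of 1272 bp there, at 43428568 to 43429839 on chromosome 1, which met no untreated region. RefSeq places the start of the divergent transcript SLC2A1-DT 181 bases upstream.

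LDHA had the closest agreement between untreated replicates, with 2347 and 2320 bp covered, and 4989 and 4347 bp treated. The treated mean of 4668 bp ± 454 was 2.00 times the untreated mean of 2334 bp ± 19.1 (SD, n = 2; limma, adjusted p = 0.148). In treated replicate 1 the whole of this was 1 peak of 4989 bp, in place of 4 peaks of at most 1374 bp in untreated replicate 1. The reproducible sets showed the same, with 3 untreated LDHA regions of 854, 1577 and 465 bp and 1 treated region of 4989 bp at 18414807 to 18419795 on chromosome 11. RefSeq lists a second LDHA start 1788 bases downstream of the first, so this domain can hold more than 1 start.

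CA9 encodes carbonic anhydrase 9, a surface enzyme that controls pH and is widely used as a marker of hypoxic tumour cells. Its window, 35668915 to 35678915 on chromosome 9, had next to no H3K9ac. Untreated replicate 1 had 1 peak of 238 bp, 3552 bp upstream of the start, with an authors' score of 1.3, which placed it in the top 61.6% of that list. The other 3 libraries had no peak in the window, and their nearest peaks lay 8789 bp (untreated replicate 2), 8213 bp and 8198 bp (treated) from the start. Neither reproducible set had a region in the CA9 window. In limma the CA9 difference was -0.08 on the arcsine scale (adjusted p = 0.549), which rests on that single peak.

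BNIP3, NDRG1 and DDIT4 act in stressed cells: BNIP3 promotes removal of mitochondria, NDRG1 is a stress-induced protein linked to differentiation, and DDIT4 (REDD1) restrains mTOR signalling. BNIP3 coverage was 2813 and 1852 bp untreated and 5230 and 4338 bp treated, a ratio of condition means of 2.05, the highest of the 10 (limma, adjusted p = 0.139). Most of the BNIP3 difference lay inside the gene, with 2204 and 1358 bp against 4386 and 3449 bp downstream of the start. A treated region of 4956 bp at 133791459 to 133796414 on chromosome 10 met 2 untreated BNIP3 regions of 1320 and 600 bp. Treated replicate 1 kept separate peaks there, of 4041 and 779 bp, and in treated replicate 2 a peak of 3793 bp met both untreated regions.

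NDRG1 coverage was 3806 and 2607 bp untreated and 6261 and 5777 bp treated, with means of 3207 bp ± 848 and 6019 bp ± 342 (SD, n = 2; limma, adjusted p = 0.162). The reproducible NDRG1 region measured 2712 bp untreated, at 134306894 to 134309605 on chromosome 8, and 6416 bp treated, at 134304919 to 134311334. Neither treated library called it as a single peak. Their longest NDRG1 peaks were 3909 and 4479 bp, and treated replicate 1 had an uncovered gap of 154 bp at the start. Both untreated libraries also had a separate NDRG1 peak upstream of the start, of 1094 and 742 bp, which is not in the reproducible set. Upstream coverage in all peaks was 1152 and 742 bp untreated and 1685 and 1666 bp treated.

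DDIT4 coverage was 3626 and 3254 bp untreated and 5922 and 5101 bp treated, with means of 3440 bp ± 263 and 5512 bp ± 581 (SD, n = 2; limma, adjusted p = 0.385). DDIT4 kept 2 reproducible regions in both conditions, divided at the start, and each was wider in the treated set. The upstream region measured 793 bp untreated and 2103 bp treated, and the downstream one 2824 and 3554 bp. RefSeq lists DDIT4-AS1 with its start 213 bases upstream.

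**Figure D3:**
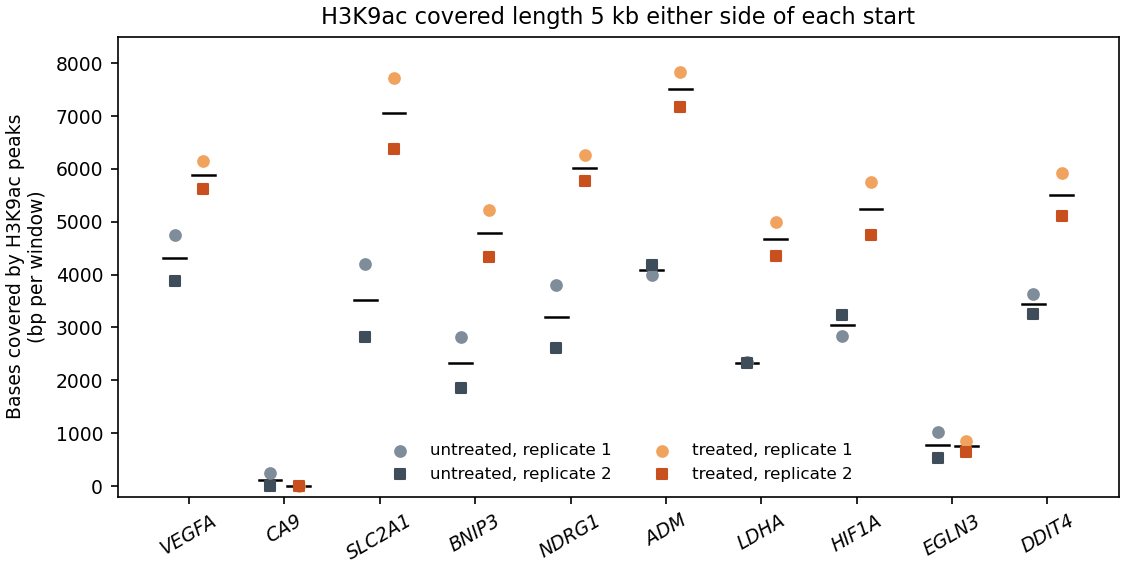
Bases covered by H3K9ac peaks within 5 kb either side of each gene start (vertical axis, bp of 10001) for each of the 4 libraries. Points are libraries and bars are means of 2. Treated points lie above untreated points at every start but CA9, with 0 to 238 bp, and EGLN3, with 522 to 1030 bp.

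Peaks in treated libraries were longer but not more numerous. The 10 windows together held 36 and 29 peaks untreated and 27 and 31 treated, so the groups overlapped in number. The mean length of the longest peak per window was 1656 bp ± 167 untreated and 3875 bp ± 401 treated (SD of library means, n = 2), a ratio of 2.34. The longest peak was longer in both treated than in both untreated libraries at 8 of 10 starts, against 88% of the windows on regions of both sets. The authors' reproducible sets had 18 regions at 9 starts untreated and 13 regions at the same 9 starts treated. Of the 10 treated regions that met an untreated one, 6 met 2 or more, at VEGFA, SLC2A1, BNIP3, ADM, LDHA and HIF1A. Across the genome 14.9% of such treated regions met 2 or more. That share covers regions of any width, and no comparison at like width was made. A reproducible region could also span several peaks of a single library, as at BNIP3 and NDRG1. The median of the widest region per gene was 1912 bp untreated and 4990 bp treated over these 9 genes. EGLN3 alone of the 9 had a narrower one in the treated set. Widths were not compared in this way for reproducible regions elsewhere, so whether this is particular to these genes was not tested.

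The added coverage lay on both sides of the start. Over the 10 windows, the 5000 bp upstream had a mean of 631 bp ± 150 covered untreated and 1354 bp ± 192 treated, and the 5000 bp downstream 2084 bp ± 201 and 3388 bp ± 274 (SD of library means, n = 2). These are ratios of 2.15 upstream and 1.63 downstream, with the larger difference in bases downstream. CA9 and EGLN3 were again the exceptions on both sides. Over the whole window this order held in 86.1% of the windows on regions of both sets. Coverage by side was not measured in other windows, so whether it is particular to these starts was not tested.

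The profiles of the 4 libraries were closest just inside the gene. From 250 to 500 bp inside the gene the mean share covered over the 10 starts was 87.5% and 88.4% untreated and 89.7% and 90% treated. CA9 had no peak there in any library, so the mean could not exceed 90%. All 4 libraries were near that ceiling, where the covered share cannot show a difference in the amount of the mark. Coverage was lower across the start, where the groups did not overlap. In the 250 bp just upstream it was 37.0% and 18.2% untreated and 58.4% and 66.4% treated. From 3250 to 3500 bp inside the gene it was 30.5% and 6.80% untreated and 80% and 65.2% treated, so the groups were far apart at this distance. The start base itself lay under a peak at 5 and 2 of the 10 starts untreated and at 5 and 7 treated, so in replicate 1 the number was the same in both conditions. HIF1A and DDIT4 had an uncovered gap at the start in all 4 libraries. At DDIT4 it was 299 and 395 bp wide untreated and 189 and 200 bp treated. ADM and LDHA had such a gap in both untreated libraries, of 302 and 290 bp at ADM and of 352 and 502 bp at LDHA, and in neither treated one. These distances refer to the given start of each gene, and other annotated starts would move the gap.

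**Figure D4:**
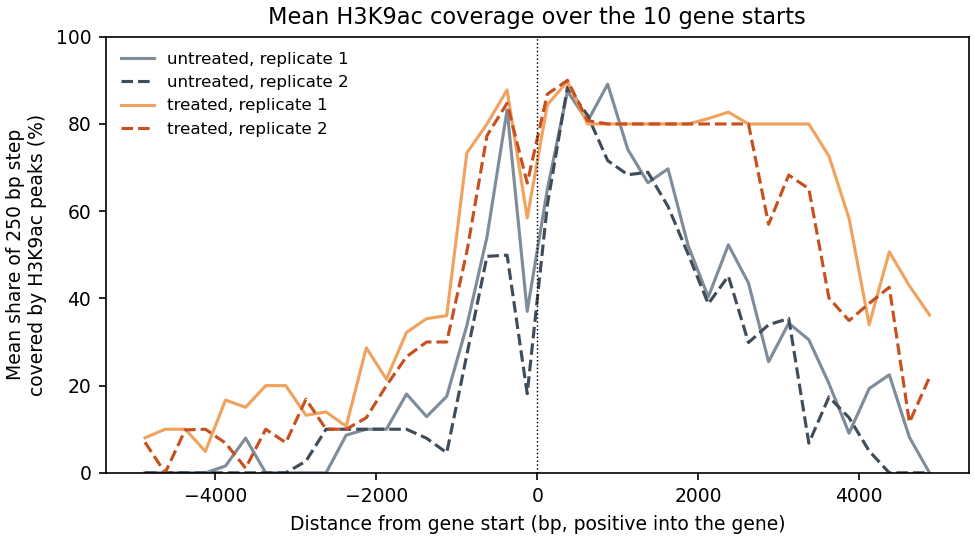
Mean share of each 250 bp step covered by H3K9ac peaks over the 10 gene starts (vertical axis, %), by distance from the start (horizontal axis, bp, positive into the gene), with 1 line for each library. The 4 lines meet near 90% from 250 to 500 bp inside the gene and part farther in, where the treated lines are at 80% and 65.2% and the untreated ones at 30.5% and 6.80% from 3250 to 3500 bp.

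H3K9me2 was absent from these gene starts as called. None of the 10 windows met an H3K9me2 island in any of the 4 libraries, so the covered share was 0% throughout and the change in H3K9me2 could not be fitted here. Such absence was common at acetylated regions: of the windows on regions of both H3K9ac sets, 2.39% met an island in any library. CA9, with next to no H3K9ac, had none either. Across the 64218 windows of the series with an island, limma called 0 higher and 0 lower (0% each) at an adjusted p under 0.05, with 4.89% at an unadjusted p under 0.05.

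The nearest H3K9me2 island lay 152 to 3961 kb from the start, ADM having the shortest distance and SLC2A1 the longest, both in untreated libraries. The median distance over the 10 starts was 433 and 667 kb untreated and 460 and 774 kb treated. In the windows on regions of both H3K9ac sets the medians were 954 and 897 kb untreated and 842 and 1138 kb treated. Distances at 1 gene could vary greatly between replicates, as at DDIT4, with 234 and 3174 kb untreated and 274 and 1167 kb treated. LDHA was steadier, with 460 and 473 kb untreated and 508 and 464 kb treated. Within 500 kb either side, islands around NDRG1 covered 5.35% and 6.95% untreated and 7.45% and 6.65% treated, which was the highest of the 10 in every library. Around HIF1A the shares were 4.00% and 3.25% untreated and 0.70% and 4.05% treated. Around VEGFA and SLC2A1 they were 0% in all 4 libraries.

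**Figure D5:**
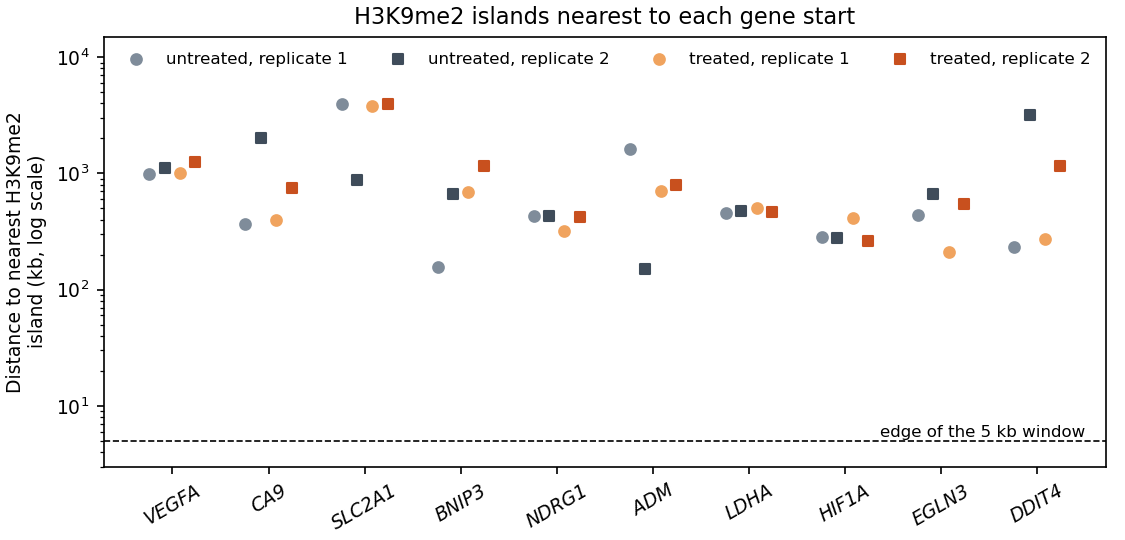
Distance from each gene start to the nearest H3K9me2 island (vertical axis, kb, log scale) in the 4 H3K9me2 libraries, 1 point each. The dashed line marks the 5 kb edge of the window, and the points run from 152 to 3961 kb.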

How the data were processed

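The authors deposited 10 interval lists without headers, on hg19 per the submitters' processing notes, which name MACS2, SICER, Picard, BWA 0.7.5 and Trimmomatic 0.32 with no role. The deposited H3K9ac peaks and H3K9me2 islands carry an authors' score per interval whose scale is not stated, and it served to rank intervals within a list. The deposited reproducible H3K9ac sets, 1 per condition, carry a value read as −log10 of an irreproducible discovery rate. Other deposited columns were interval starts and ends, used as positions, and H3K9me2 ends were extended by 1 bp. The authors' settings were not given in the sources used here, read depth is unknown, and the 4 inputs were not analysed here.

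Covered shares were computed in Python 3.11.15 with pandas 2.3.3 for the 10 windows and for all 10 kb bins of 23 chromosomes with an interval in any library. They were tested two-sided, after an arcsine square root transform, by limma 3.58.1 (R 4.3.3, trended variance), and checked on simulated data. The 10 genes, lists and tests were chosen with earlier results of these data known. All 10 genes are named whatever their values, with any RefSeq gene start within 5 kb except at VEGFA and NDRG1, whose neighbours were not searched. Strands are from RefSeq, those of VEGFA and NDRG1 from general knowledge. Other genes of the hypoxia response were not tested, because no hg19 annotation was used here. Replicate lists shared at most 0.724% of intervals with identical bounds. Alternatives were the replicate block, each library left out, other windows, scores, filters and normalization.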

Additional observations from a re-analysis of the deposited data

How the results depend on the processing

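Across 14 alternatives the H3K9ac difference stayed positive for SLC2A1, BNIP3, NDRG1, ADM, LDHA and HIF1A, and adjusted p-values ranged widely, for LDHA from 2.9e-05 to 0.846. The number of starts with both treated above both untreated libraries was 8 or 9 with 2 kb or 10 kb either side, with the higher-scoring 50% of peaks, equal numbers or the 20000 highest-scoring peaks, and with each library left out (chosen after seeing the data). Among all windows tested the same order held in 27911 of 177368 with 2 kb and 15478 of 93357 with 10 kb either side. It held in 17776 of 67655 with the higher-scoring 50%, 21271 of 95884 with equal numbers and 15067 of 25370 with the 20000 highest-scoring peaks. The background thus differed between settings. The number of starts was not counted after quantile normalization, where 4 of the 10 differences were negative. Starts called higher by limma, 0 in the reported fit, numbered 4 with windows covered to at least 5%, 1 with 2 kb either side, 6 with the higher-scoring 50% of peaks, 6 with equal numbers of peaks and 5 beside regions of both sets. In that order 3860, 5255, 4395, 6473 and 3831 windows were called higher, and 35, 37, 33, 53 and 37 lower, in place of 740 and 7. The shares called higher were 11.4%, 2.96%, 6.5%, 6.75% and 33.6% of the windows tested, in place of 0.569%. Quantile normalization gave 1281 and 115, and 0 and 0 came without the trend, with 10 kb either side and with the 20000 highest-scoring peaks. Leaving out 1 library gave 0 to 5873 higher and 0 to 55785 lower. The 55785 were called without untreated replicate 2, among 114165 windows tested, and CA9 was 1 of them. Its difference there, -0.155 on the arcsine scale, rested on 1 peak of 238 bp in the only untreated library left. A lower call was thus common in that fit and is not particular to CA9.

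Replicate numbers share no stated batch. Same-numbered libraries deviated together with a correlation of -0.014 (H3K9ac) and -0.078 (H3K9me2) over windows. With the replicate block limma called 7 starts, 8997 windows (6.92%) higher and 80 lower for H3K9ac, and 0 and 0 for H3K9me2.

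The difference of 2027 bp in mean covered length became 677 bp with 2 kb and 2685 bp with 10 kb either side, and 1697 to 2356 bp with 1 library left out. A reproducible region covered the start itself at 5 genes untreated and 7 treated, in place of 9 and 9 for the window. Among the 10000 highest-scoring regions of each set the window count was 9 untreated and 6 treated, the opposite order. Reversed arcsine differences were -0.0975 for VEGFA and -0.0166 for DDIT4 after quantile normalization, 0.0366 for CA9 with 10 kb either side, and for EGLN3 (-0.0486 to 0.0476 with 1 library left out) 0.0476 without untreated replicate 1, 0.019 without treated replicate 2 and 0.0364 with the higher-scoring 50% of peaks and in equal lists. For H3K9me2, 195 windows were called higher and 231 lower without the trend, and 0 to 12669 higher and 0 to 2534 lower with 1 library left out. The cause of these shifts was not tested. Depth behind the intervals is unknown, so an uncalled stretch is not shown to lack the mark.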
